A study of Mus musculus with 8 samples.

Results

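The genes described here are the aminoacyl-tRNA synthetases of the cytosol and of mitochondria, together with Xpot, the exportin that carries tRNA out of the nucleus. A set of 37 mouse gene symbols was looked up in the authors' deposited comparison of Grp94 knockdown with empty vector. Rows of 11 of them were found among 2395 transcript clusters. The set held 20 genes of the cytosolic synthetases, of which 9 were listed, and 16 of the mitochondrial synthetases, of which 1 was listed. Xpot was listed as well. All 11 were lower in the knockdown, as were 59.9% of all transcript clusters in the table. The genes were selected on results of these data already known, namely their listing and the difference of both means (knockdown minus empty vector), so these values are given as a description with no test.

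Aminoacyl-tRNA synthetases join each amino acid to its tRNA, the step that sets the reading of the genetic code. The cytosol and the mitochondrion each need a set of these enzymes, and all of them are encoded in the nucleus. Genes of the mitochondrial enzymes mostly carry a symbol that ends in 2, while Gars and Kars each give rise to the enzyme of both compartments. When amino acids run short or the ER is stressed, the transcription factor ATF4 binds composite sites for ATF4 and C/EBP proteins and raises a programme of amino acid transport, amino acid synthesis and tRNA charging. Many cytosolic synthetase genes and Xpot are known members of that programme.

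N2a (neuro2a) cells, a line from a mouse neuroblastoma, were the source of the RNA. In the labels, 4 samples are cells transfected with a vector knockdown control and 4 are cells with knockdown of Grp94, the ER chaperone encoded by Hsp90b1, and no genetic change apart from these plasmids is named for either group. The knockdown plasmids carried an artificial microRNA together with a green fluorescent protein. The submitters' design text names an empty vector as the control of this series, and the groups are called so here. The study as a whole used more than 1 Grp94 construct and also a non-targeting control vector, and the sample labels do not tie a construct to an array. Cells were transfected transiently, so transfected and untransfected cells were measured together. In such bulk RNA, fewer cells that express a gene and less RNA per cell cannot be told apart.

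A transcript cluster of the Affymetrix Mouse Gene 1.0 ST array is a group of transcripts read by probes along their exons. It is assigned to a gene, and some rows carry the symbols of more than 1. Each has a single mean per group in the table. These means are log2 values centred for each transcript cluster, so they show a difference between groups but no level of expression. Values per array were not used here, and therefore no SD, standard error or p-value is given, a sample that stands apart could not be looked for, and the labelled cell type could not be checked against its markers. The table is limited by the authors to transcript clusters past their threshold on an adjusted p, after removal of weakly expressed genes. A gene that is not listed may have been too weak, may have failed the threshold or may not be represented, and these cannot be told apart. The target of the knockdown, Hsp90b1, had an authors' mean of 0.74 in empty vector and -0.78 in the knockdown, a difference of -1.52 and a 2.87-fold decrease in the direction of the label. Positions of transcript clusters are given as deposited, in a build that is not stated, and cannot be set against the GRCm38.p6 positions of the promoters.

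Promoters of the synthetase genes are shown first because ATF4 is known to act on several genes of this family through a short promoter sequence. RefSeq promoters of build GRCm38.p6, which run from 250 bases before to 50 bases after the annotated start site, were matched for 28 of the 37 genes. No entry was matched for Cars, Hars, Lars, Nars, Rars, Vars, Wars, Hars2 and Pars2. The 6 promoters below are those of Gars and Yars, the listed genes with a match to TGATGNAA, of Xpot, the listed gene with the largest decrease, and of Aars, Iars and Tars, which hold a match but were not listed. TGATGNAA is the core of the response element for ATF4 and C/EBP proteins. Capitals mark its matches on either strand, so that a match on the opposite strand reads TTNCATCA.
Gars promoter, chr6:55037751-55038050, plus strand: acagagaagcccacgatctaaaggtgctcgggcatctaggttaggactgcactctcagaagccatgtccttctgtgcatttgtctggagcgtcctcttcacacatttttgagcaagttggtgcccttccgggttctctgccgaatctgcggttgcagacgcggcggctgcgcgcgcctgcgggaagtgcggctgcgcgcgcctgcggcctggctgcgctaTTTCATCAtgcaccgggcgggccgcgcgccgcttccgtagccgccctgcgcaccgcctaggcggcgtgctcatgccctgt
Yars promoter, chr4:129189653-129189952, plus strand: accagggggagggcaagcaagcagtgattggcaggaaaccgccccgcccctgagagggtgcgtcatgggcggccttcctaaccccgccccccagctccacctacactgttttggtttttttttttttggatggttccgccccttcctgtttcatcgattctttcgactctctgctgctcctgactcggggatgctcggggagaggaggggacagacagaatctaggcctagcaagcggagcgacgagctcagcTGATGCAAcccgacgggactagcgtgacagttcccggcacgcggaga
Xpot promoter, chr10:121626283-121626582, minus strand: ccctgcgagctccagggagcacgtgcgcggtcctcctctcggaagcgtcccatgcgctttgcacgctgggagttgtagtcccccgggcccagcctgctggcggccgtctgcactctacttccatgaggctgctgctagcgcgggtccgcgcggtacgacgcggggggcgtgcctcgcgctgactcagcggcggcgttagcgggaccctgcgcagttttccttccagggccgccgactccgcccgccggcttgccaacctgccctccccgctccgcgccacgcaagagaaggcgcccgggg
Aars promoter, chr8:111033592-111033891, plus strand: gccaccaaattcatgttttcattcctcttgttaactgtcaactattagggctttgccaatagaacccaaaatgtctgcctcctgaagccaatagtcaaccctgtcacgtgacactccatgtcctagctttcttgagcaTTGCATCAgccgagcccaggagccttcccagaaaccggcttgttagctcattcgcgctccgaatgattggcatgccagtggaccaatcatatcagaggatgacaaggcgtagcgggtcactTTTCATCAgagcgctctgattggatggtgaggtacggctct
Iars promoter, chr13:49681880-49682179, plus strand: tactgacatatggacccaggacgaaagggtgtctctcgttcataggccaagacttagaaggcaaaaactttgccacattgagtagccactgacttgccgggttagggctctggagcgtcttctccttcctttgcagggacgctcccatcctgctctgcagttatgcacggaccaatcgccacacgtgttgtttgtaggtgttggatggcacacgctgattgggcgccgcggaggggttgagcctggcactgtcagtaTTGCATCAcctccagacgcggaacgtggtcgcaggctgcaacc
Tars promoter, chr15:11399609-11399908, minus strand: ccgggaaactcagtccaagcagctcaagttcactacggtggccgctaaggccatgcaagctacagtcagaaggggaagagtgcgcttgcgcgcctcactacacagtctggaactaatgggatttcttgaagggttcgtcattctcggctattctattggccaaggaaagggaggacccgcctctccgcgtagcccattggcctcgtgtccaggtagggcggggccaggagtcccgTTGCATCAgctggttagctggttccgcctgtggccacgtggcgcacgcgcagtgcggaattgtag
The match began 30 bases before the start site in Gars and 15 bases before it in Tars. In Yars it began 3 bases after the start site and in Iars 7 bases after it. Aars held 2 matches, which began 112 bases before and 9 bases after the start site. Among these matches, the one of Yars alone was on the strand of the gene. No match was present in the Xpot window.

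TGATGNAA was present in 5 of the 13 cytosolic synthetase genes with a promoter (38.5%) and in 0 of 14 mitochondrial ones. It was present in 4.51% of the 27025 genes with a promoter in the reference, and in 3.97% of the 32851 promoters of the same length. Among cytosolic genes with a promoter, 2 of 5 listed and 3 of 8 unlisted ones held a match. Over the table as a whole, 43 of 970 genes of lower transcript clusters (4.43%) and 12 of 609 genes of higher ones (1.97%) held the motif. The search reads only these letters in this window, and sites in an intron or farther upstream were not searched.

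CCAAT, the box bound by NF-Y, the factor at the centre of the study, was searched on both strands in the same windows. It was present in 7 of 13 cytosolic synthetase genes (53.8%), in 6 of 14 mitochondrial ones (42.9%) and in 41.1% of all genes with a promoter. Of the listed genes, Kars, Mars, Yars and Cars2 held it. In the same background within the table, 46.5% of the 970 genes of lower transcript clusters and 40.9% of the 609 genes of higher ones held CCAAT. TGACGTCA, the cyclic AMP response element, was present in none of the 28 genes and in 2.03% of all genes. Its shares were 4.02% for genes of lower transcript clusters and 3.45% for genes of higher ones. Matches of different motifs overlapped in 0 cases among the 28 genes.

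**Figure D1:**
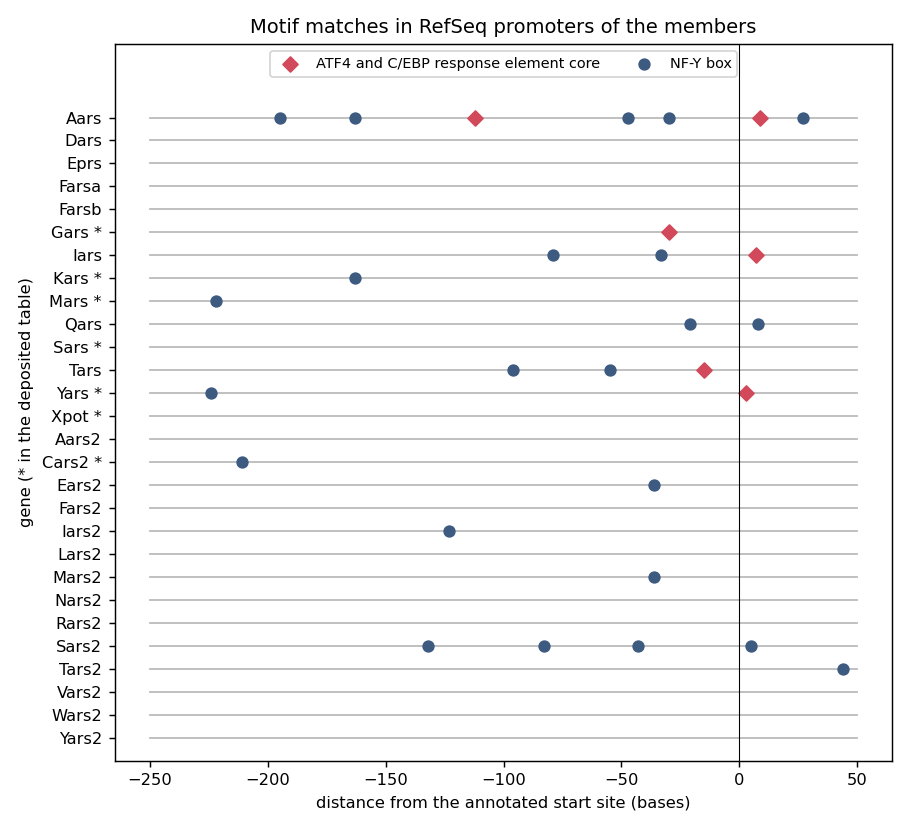
Position of motif matches in the RefSeq promoters of the 28 synthetase and Xpot genes with a promoter (rows, cytosolic first, then Xpot, then mitochondrial; an asterisk marks a gene in the deposited table), as bases from the annotated start site. Diamonds, the ATF4 and C/EBP core, are found in 5 cytosolic genes, and circles, the NF-Y box, in genes of both compartments; for genes with more than 1 promoter the first is drawn.

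Xpot and Lars had the largest decreases of the set. Xpot, which binds mature tRNA in the nucleus together with Ran and releases it in the cytosol (transcript cluster on the minus strand of chromosome 10, 121026683 to 121059963, 21 probes), had an authors' mean of 0.21 in empty vector and -0.24 in the knockdown. The difference of -0.46 on the log2 scale is a 1.37-fold decrease. Lars, the leucyl-tRNA synthetase (minus strand of chromosome 18, 42362003 to 42421781, 33 probes), had authors' means of 0.19 and -0.26, a difference of -0.45 and also a 1.37-fold decrease. Both ranked close together, at 252 for Xpot and 257 for Lars among the 1434 lower transcript clusters. They were the only genes of the set past a fold change of 1.3. That threshold was passed downwards by 16.1% of all transcript clusters in the table, so 2 of 11 genes, or 1 of 9 cytosolic synthetases, is close to that background and is no result about the set. The same threshold was passed upwards by 0 of 11 genes and by 6.26% of all transcript clusters. At 1.1-fold, 7 of 9 cytosolic synthetases were past the threshold downwards against 54.7% of all transcript clusters, at 1.2-fold 2 of 9 against 31.8%, and at 1.5-fold 0 of 9 against 5.34%.

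The next group of cytosolic synthetases had decreases near the median of the lower transcript clusters or below it in size. Gars, the glycyl-tRNA synthetase whose mutations cause an inherited neuropathy (plus strand of chromosome 6, 54987995 to 55029498, 34 probes), had authors' means of 0.14 in empty vector and -0.16 in the knockdown, a difference of -0.30 (1.23-fold). It was the listed synthetase nearest to the 1.3-fold line from below. Cars, the cysteinyl-tRNA synthetase (chromosome 7, 150743133 to 150785961), had authors' means of 0.11 and -0.14, a difference of -0.24 (1.18-fold).

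Sars, Nars and Wars were alike in size. Sars, which charges serine tRNA and also the selenocysteine tRNA with serine (chromosome 3, 108227783 to 108248087), had authors' means of 0.09 and -0.12. Nars, the asparaginyl-tRNA synthetase (chromosome 18, 64659309 to 64676191), had authors' means of 0.08 and -0.13. Wars, the tryptophanyl-tRNA synthetase, also known as an interferon-induced gene (chromosome 12, 110098244 to 110132323), had authors' means of 0.12 and -0.09. Each of the 3 differences was -0.21 on the log2 scale, which gave decreases of 1.16-fold, 1.16-fold and 1.15-fold. Without a spread between arrays, no order can be read among them.

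Mars, Yars and Kars had the smallest decreases. Mars, the methionyl-tRNA synthetase, which also charges the initiator tRNA, had authors' means of 0.07 in empty vector and -0.10 in the knockdown, a difference of -0.17 (1.13-fold) over 42 probes. Yars, the tyrosyl-tRNA synthetase (chromosome 4, 128867108 to 128896851), had authors' means of 0.06 and -0.05, a difference of -0.11 (1.08-fold). Kars, the lysyl-tRNA synthetase of both compartments (chromosome 8, 114517343 to 114535223), had authors' means of 0.05 and -0.03, a difference of -0.08 (1.06-fold). Of all lower transcript clusters in the table, 95.9% had a larger decrease than Yars and 98.7% a larger one than Kars.

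Mars has a second row, in which its symbol is paired with Ddit3, the gene of the stress factor Chop. That transcript cluster (chromosome 10, 126727864 to 126733344) lies on the plus strand and spans 5481 bp. The row of Mars alone (126733282 to 126748734) lies on the minus strand, and both spans overlap by 63 bp. The shared row had authors' means of 0.12 and -0.22, a difference of -0.34 (1.26-fold). By strand and span it lies outside the row of Mars but for that overlap, so it was not read as a value of Mars, and the values for Mars given here are those of its own row.

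**Figure D2:**
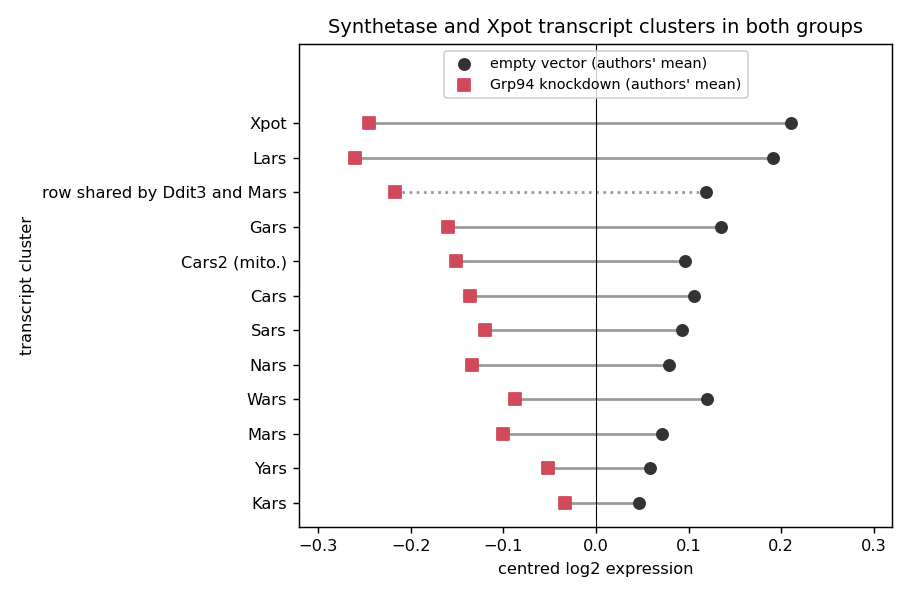
Authors' means of centred log2 expression in empty vector (circles) and Grp94 knockdown (squares) for the 12 transcript clusters with a symbol of the set, sorted by their difference; the dotted line is the row shared by Ddit3 and Mars. Every square lies left of its circle, and the differences run from -0.46 for Xpot to -0.08 for Kars.

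Most of the decreases among cytosolic synthetases were small. The median difference of the 9 listed genes was -0.21 on the log2 scale (range -0.45 to -0.08), where the median of all 2395 transcript clusters was -0.16 and that of the 1434 lower ones was -0.28. Of the 11 genes including Xpot and Cars2, 3 had a larger decrease than the median lower transcript cluster and 8 a smaller one. The sign of the smallest ones depends on where the zero of the log2 scale is put. When differences were taken from the median of all listed transcript clusters instead, Mars became -0.01, while Yars and Kars turned to 0.05 and 0.08, so that 7 of the 9 cytosolic synthetases were lower and 2 were higher. By construction, re-centring puts 50% of all transcript clusters on each side. The table holds only transcript clusters past the authors' threshold, and 59.9% of them were lower, so this median need not mark no change. Signs after re-centring are therefore not read as directions of change.

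**Figure D3:**
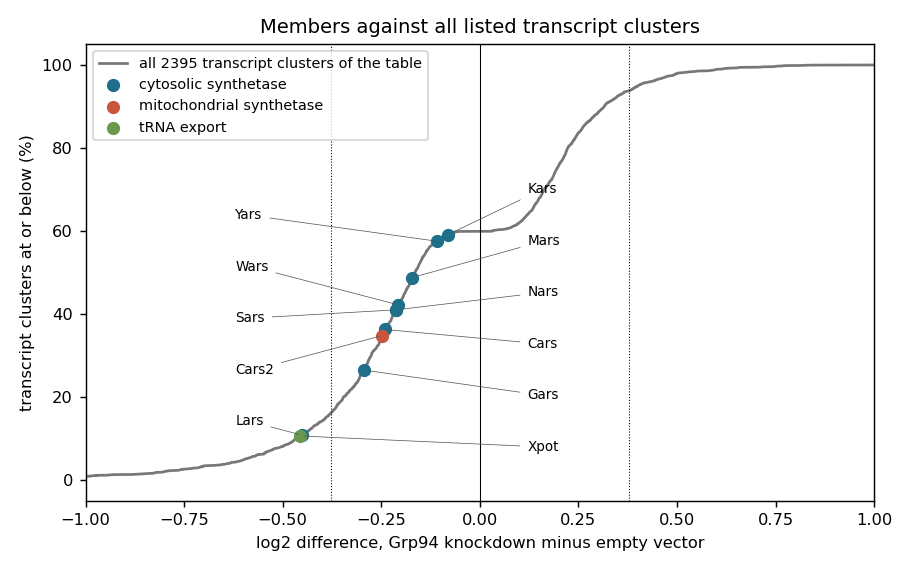
Cumulative share of all 2395 transcript clusters of the table (grey line, y axis in percent) against the log2 difference of the authors' means, knockdown minus empty vector, with the 11 listed genes marked on it by compartment; dotted lines mark a fold change of 1.3. Lars and Xpot lie left of the dotted line and the other 9 lie between it and 0; the x axis ends at 1 in both directions, beyond which some transcript clusters lie.

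The question of compartment was then examined. Of 20 cytosolic synthetase genes 45% were listed, of 16 mitochondrial ones 6.25%, and among 21896 protein-coding genes in RefSeq the share was 10.3%, a background that also holds genes these cells may not express. Cytosolic genes without a row were Aars, Dars, Eprs, Farsa, Farsb, Hars, Iars, Qars, Rars, Tars and Vars. Among them are the synthetases for alanine, isoleucine and threonine, whose promoters are shown above. The mitochondrial genes without a row were Aars2, Ears2, Fars2, Hars2, Iars2, Lars2, Mars2, Nars2, Pars2, Rars2, Sars2, Tars2, Vars2, Wars2 and Yars2. A gene without a row is not shown to be unchanged, and no difference in size between both compartments can be derived from the listing.

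The listed mitochondrial gene was Cars2, the mitochondrial cysteinyl-tRNA synthetase, which is also known for making cysteine persulfides (minus strand of chromosome 8, 11514021 to 11550783, 33 probes). It had authors' means of 0.10 in empty vector and -0.15 in the knockdown, a difference of -0.25 (1.19-fold). Its cytosolic counterpart Cars had -0.24, a value close to it, with no spread to set them apart. Of 13 pairs of cytosolic and mitochondrial genes with matching symbols, cysteine was the pair in which both were listed. In 6 pairs the cytosolic gene alone was listed (Lars, Mars, Nars, Sars, Wars and Yars) and in 6 neither was.

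Synthetases fall into class I and class II by the fold of the catalytic domain, which was no part of the choice of genes. Of the 9 cytosolic class I genes 5 were listed (Cars, Lars, Mars, Wars and Yars), with a median difference of -0.21, and of the 10 class II genes 4 were listed (Gars, Kars, Nars and Sars), with a median of -0.21. Eprs, whose protein joins an enzyme of each class, was not listed. Several cytosolic synthetases form the multi-synthetase complex. Of its 8 genes 3 were listed (Lars, Mars and Kars), with a median of -0.17, and of the 12 genes of free synthetases 6 were listed, with a median of -0.21, an order that turned when Gars and Kars were left out or when the row shared with Ddit3 was counted. The complex thus held both the largest decrease among the synthetases, that of Lars, and the smallest, that of Kars. The share listed was 55.6% for class I, 40% for class II, 37.5% for the complex and 50% for free synthetases. It was 45% for all cytosolic synthetases and 10.3% for protein-coding genes in RefSeq. With so few genes, these shares are no result about class or complex.

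Other genes of tRNA biology were read from a list of 139 genes. Of these 21 were listed (15.1%), where 10.3% of protein-coding genes in RefSeq were. Of the 21, 9 were lower and 12 higher, where 40.1% of all transcript clusters were higher. Past a fold change of 1.3 there were 0 in either direction, where 16.1% of all transcript clusters were lower and 6.26% higher past it. Their differences ran from -0.31 to 0.32 on the log2 scale, with none between -0.08 and 0.11. The median of 0.13 therefore follows the split of 9 and 12 and is no typical difference. For the cytosolic synthetases the median was -0.21. The gap near 0 is no trait of the wider list, because the table holds only transcript clusters past the authors' threshold. Of all lower transcript clusters, 98.7% had a larger decrease than -0.08. After re-centring on the median of all transcript clusters, 4 of the 21 were lower and 17 were higher, against 50% of all transcript clusters on each side by construction. As above, these re-centred signs are not read as directions of change.

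Genes nearest to the synthetases in function were mixed. Aimp2, a scaffold of the multi-synthetase complex, was at -0.21, a difference close to that of Sars and Nars, while the scaffolds Aimp1 and Eef1e1 were not listed. Aarsd1, an editing protein that removes wrongly attached amino acids from alanine tRNA, was at -0.13. Dtd1, which removes D-amino acids from tRNA, was at 0.22. Xpo5, an exportin best known for carrying microRNA precursors out of the nucleus, was at 0.11, opposite in sign to Xpot.

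Of 25 processing genes 2 were listed (8%), and of 64 modification genes 12.5%, where the share of protein-coding genes was 10.3%. These shares are close to that background and are no result about either role. Both listed processing genes were higher, where 40.1% of all transcript clusters were. Rpp38, a protein of ribonuclease P, which cuts the leader from precursor tRNA, was at 0.32, and Ssb, the La protein that binds the ends of new tRNA transcripts, was at 0.13. Of 64 modification genes 8 were listed, 3 lower and 5 higher. The lower ones were Ftsj1, a methyltransferase of the anticodon loop, at -0.31, and the dihydrouridine synthases Dus3l at -0.16 and Dus2l at -0.15, the last in a row shared with Ddx28. The higher ones were Trmt61b at 0.24, Dus4l at 0.22, Qtrtd1 at 0.20, Adat2 at 0.19 and Nat10 at 0.17. Among them Adat2 is part of the enzyme that makes inosine at the wobble position, and Qtrtd1 of the one that inserts queuine. After re-centring, Ftsj1 was the modification gene left on the lower side.

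RNA polymerase III, which transcribes tRNA genes, had listed subunits on both sides. Crcp was at -0.24 and Polr3c at -0.14, while Polr3f was at 0.19 and Polr3k at 0.18. Maf1, a repressor of that polymerase, was at -0.19. Sephs2, which makes the selenium donor for selenocysteine, was at 0.22. The row of Tufm, the mitochondrial elongation factor, was at -0.08, but it is placed on chromosome 8 and the RefSeq gene on chromosome 7, so the value cannot be assigned to the Tufm mRNA. Without that row, 8 genes of the wider list were lower and 12 higher. The other 20 rows lay on the chromosome of their gene, as did the 12 rows of the synthetases and Xpot.

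**Figure D4:**
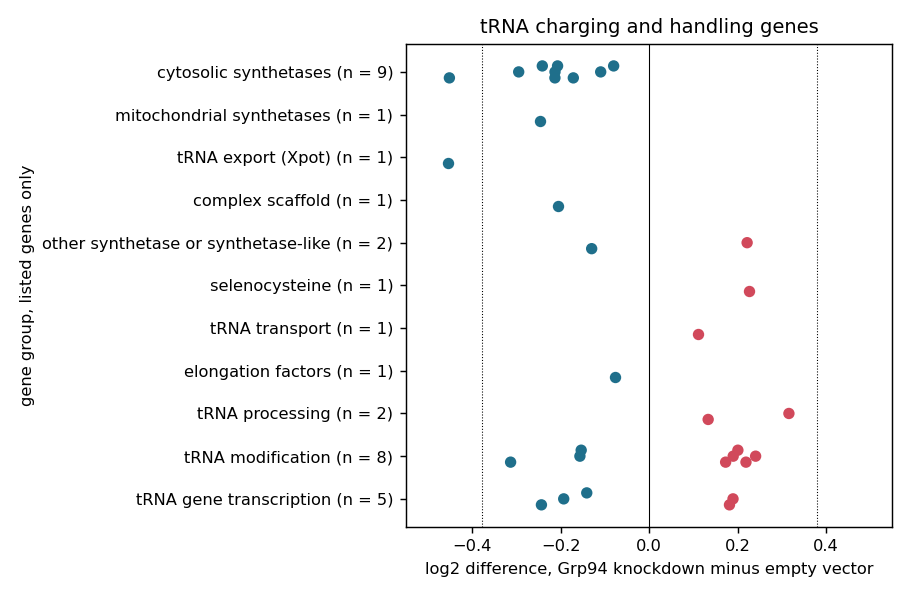
Log2 difference of the authors' means, knockdown minus empty vector (x axis), for the listed synthetase and Xpot genes and for 21 listed genes of the wider tRNA list by role (rows, with the number listed); blue points are lower and red points higher, and dotted lines mark a fold change of 1.3. Synthetases and Xpot are all left of 0, while the wider list spans -0.31 to 0.32.

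Atf4, the factor named above, had authors' means of 0.12 in empty vector and -0.15 in the knockdown, a difference of -0.26, or 16.8% lower. Of all lower transcript clusters, 52.7% had a larger decrease than Atf4. The decrease of Atf4 was smaller than those of Xpot, Lars and Gars and larger than those of the other 8 listed genes. Gars at -0.30 and Cars2 at -0.25 were close to it, and with no spread between arrays their order cannot be read. The part of Atf4 in their values was not tested.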

How the data were processed

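Total RNA of transfected N2a cells was measured on Mouse Gene 1.0 ST arrays, and the authors used GeneSpring GX after removing weakly expressed genes. The deposited log2 values are the authors' means per group, centred for each transcript cluster; probe summarization, normalization between arrays and genome build were not given in the sources used here. The authors' own p-value, q-value, direction and fold change columns were not used. Differences were taken as knockdown minus empty vector, and folds were computed from them. The number of probes per transcript cluster is a deposited annotation count.

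Samples were grouped by title, 4 and 4. Where a symbol had several rows, the row with the most probes was used. The named genes were Hsp90b1, Atf4, every listed gene of the set and of the tRNA list, and any gene sharing a row with one of the set. Genes and lists were chosen with earlier results of these data known. Alternatives changed the fold threshold (1.1, 1.2, 1.5 or none), the zero of the scale, the choice of rows and the place of Gars and Kars. Promoters came from RefSeq (GRCm38.p6). Python 3.11.15, numpy 2.4.6, pandas 2.3.3 and matplotlib 3.10.9 were used, and counting, row choice and motif search were tested on simulated data. No depth exists for arrays, and their number limits precision.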

Additional observations from a re-analysis of the deposited data

How the results depend on the processing

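No paired analysis was possible because the table holds 1 mean per group, and for the same reason no sample could be left out. The number of cytosolic synthetases lower past the threshold, 1 at 1.3-fold, follows the threshold by construction and was 7 at 1.1, 2 at 1.2, 0 at 1.5 and 9 with none. For mitochondrial synthetases it was 1 at 1.1 and 1 with no threshold. Re-centring on the median of all transcript clusters gave 0 cytosolic genes past 1.3-fold and medians of -0.0485 for the cytosolic and -0.0828 for the mitochondrial synthetases, with 2 cytosolic genes then higher. In the wider tRNA list it left 4 lower. That median comes from transcript clusters past the authors' threshold and need not mark no change. The median of class I minus that of class II turned from 0.0059 to -0.0114 when every row of Mars was counted. The complex minus the free synthetases turned from 0.0416 to -0.0407 in that way and to -0.0986 without Gars and Kars. The other values stayed within 1.5 times the count or equal to 2 decimals. Several of these could not move by construction, such as counts of higher genes at any threshold, where every listed gene was lower, and differences of medians after re-centring, which shifts all genes alike. The alternatives for the wider list and the re-centred split without a threshold were added after the data were seen.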
